A study of Mus musculus with 16 samples.

Results

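Open chromatin occupied by Tead transcription factors was described in organ of Corti progenitors of the mouse at E12.0. The regions were those that all 3 ATAC-seq libraries of this age listed as peaks after the peaks of the libraries had been merged, 34484 of 224840 merged regions. They were divided by overlap, of 1 bp or more, with the peak lists of 2 Tead CUT&RUN libraries. Both Tead lists held 894 open regions, 1 list held 13573 and neither list held 20017.

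The series holds 16 libraries of progenitors sorted from the cochlea by a fluorescent reporter. The E12.0 cells were positive for Sox2-GFP and gave the 2 Tead CUT&RUN, 3 ATAC-seq and 2 RNA-seq libraries that defined and described the classes, together with 2 CUT&RUN libraries for H3K27ac, an acetylation of histone H3 found at active promoters and enhancers. The other 3 ATAC-seq libraries came from p27-GFP positive progenitors at E13.5. The labels used here give neither the strain nor whether replicates came from separate litters, so the spread between libraries may be technical. Tead was captured with a pan-Tead antibody from Cell Signaling, which per its name does not separate the family members. Tead replicate 1 and H3K27ac replicate 1 were made with the KAPA HTP kit, and replicate 2 of each with the Accel 2S Plus kit, whose adapters carry molecular identifiers. A library with a control antibody was not analysed here.

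The Tead proteins are DNA-binding factors at the end of the Hippo pathway. When the Hippo kinases are inactive, the co-activators Yap1 and Wwtr1 (Taz) enter the nucleus and bind Tead, and Tead carries them to promoters and enhancers of genes for growth and division. ATAC-seq marks DNA that is accessible to a transposase, and CUT&RUN releases the DNA around an antibody-bound protein, so that the overlap of the lists asks where in accessible DNA the Tead signal lay. E12.0 progenitors of the organ of Corti are still dividing, before they leave the cell cycle and form hair cells and supporting cells.

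Promoters of open regions in both Tead lists are shown for genes that the results name: those of a Tead factor and of a Yap partner, a prosensory gene, and a gene from a list of Yap/Tead targets. Each sequence is the 250 bases before the transcription start, 5′ to 3′ on the gene's strand, from RefSeq on GRCm38.p6, the assembly that the peak lists use under the names GRCm38 and mm10. Capitals mark GGAATG, the core of the motif that Tead proteins bind, or its reverse complement CATTCC.
Tead2, chr7:45215542-45215791, plus strand: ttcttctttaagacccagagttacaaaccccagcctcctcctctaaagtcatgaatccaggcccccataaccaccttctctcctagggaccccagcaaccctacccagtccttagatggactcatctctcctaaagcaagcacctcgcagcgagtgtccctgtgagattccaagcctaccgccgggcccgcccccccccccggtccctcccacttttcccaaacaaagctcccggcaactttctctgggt
Wwtr1, chr3:57575911-57576160, minus strand: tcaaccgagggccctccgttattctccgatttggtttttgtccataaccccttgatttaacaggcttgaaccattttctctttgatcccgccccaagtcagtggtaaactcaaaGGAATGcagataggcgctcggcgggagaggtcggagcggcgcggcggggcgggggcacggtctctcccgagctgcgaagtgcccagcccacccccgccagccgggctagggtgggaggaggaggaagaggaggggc
Id3, chr4:136143572-136143821, plus strand: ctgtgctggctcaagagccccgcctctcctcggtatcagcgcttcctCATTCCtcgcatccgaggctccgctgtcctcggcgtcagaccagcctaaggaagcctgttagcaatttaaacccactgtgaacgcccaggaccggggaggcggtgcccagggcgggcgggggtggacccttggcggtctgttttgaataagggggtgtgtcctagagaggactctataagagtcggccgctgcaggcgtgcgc
Gadd45a, chr6:67037408-67037657, minus strand: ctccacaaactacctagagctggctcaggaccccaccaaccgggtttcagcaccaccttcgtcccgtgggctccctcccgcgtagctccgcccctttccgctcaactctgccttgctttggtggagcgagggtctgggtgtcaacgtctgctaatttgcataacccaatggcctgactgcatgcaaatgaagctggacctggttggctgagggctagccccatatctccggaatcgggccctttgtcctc
The word lay 136 bases before the start in Wwtr1 and 203 bases before it in Id3, and these letters were not in the windows of Tead2 and Gadd45a. The word was in 9.23% of all promoter windows overlapping a region in both lists, so the 4 shown are not a representative sample.

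The Tead lists were unequal in length and shared few peaks. Replicate 1 listed 18250 peaks and replicate 2 listed 58410. Of the replicate 1 peaks, 8.82% overlapped a replicate 2 peak, and of the replicate 2 peaks 2.86% overlapped a replicate 1 peak. Of the peaks with −log10 q deposited by the authors, 14.0% in replicate 1 and 61.7% in replicate 2 reached a value of 2. Open regions held 6.01% of the replicate 1 peaks and 27.03% of the replicate 2 peaks. A peak of 1 list met the other list more often inside open regions than outside them. Among replicate 1 peaks, 75.3% of those in open regions lay on the replicate 2 list, against 4.57% of those elsewhere. Seen from the regions, replicate 2 held 79.3% of the 1128 open regions on the replicate 1 list, against 39.99% of the other open regions.

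The share of Tead peaks in open regions went up with the peak's own fold, the ratio over local background that the authors deposited. In replicate 2 it was 7.51% in the lowest of 5 fold bins of equal number and 71.0% in the highest. In replicate 1 the same shares were 3.75% and 10.8%, so even the strongest peaks of that list lay mostly outside the open regions.

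Reproducibility of the ATAC peaks and Tead occupancy moved together. Both Tead lists held 2.59% of the regions found by all 3 ATAC libraries (95% Wilson interval 2.43 to 2.77%), 0.494% of the 25114 regions found by 2 libraries and 0.095% of the 165242 found by 1. One Tead list held 39.4%, 19.3% and 5.27% of these regions in the same order. The regions also differed in width, with medians of 614, 306 and 168 bp for 3, 2 and 1 libraries, and the part of width in these shares was not tested. Nearly all regions in the 1-list class came from 1 library: 13339 were held by replicate 2 only and 234 by replicate 1 only. The intervals cover counting error only.

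Regions in both Tead lists were the widest class. In ATAC replicates 1, 2 and 3, the median width of the library's own peak was 643, 741 and 591 bp for regions in both Tead lists, 494, 620 and 452 bp for regions in 1 list, and 312, 432 and 286 bp for regions in no list. The order was the same in all 3 libraries. Regions in both lists exceeded those in no list by 315 ± 14.0 bp (SD, n = 3; two-sided exact sign-flip permutation test, p = 0.25, the smallest that 3 libraries allow), and regions in 1 list exceeded them by 179 ± 11.4 bp. With the Tead class set by a single list, the regions it held exceeded the rest by 188 bp for replicate 2 and by 199 bp for replicate 1.

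ATAC strength followed the same order. The median fold over local background at regions in both Tead lists was 7.36, 10.8 and 7.64 in ATAC replicates 1, 2 and 3. It was 5.70, 9.37 and 5.96 at regions in 1 list and 4.20, 7.49 and 4.81 at regions in no list. Replicate 2 had the highest folds in each class, and within each library the classes kept one order. The difference between both lists and no list was 3.11 ± 0.259 in fold, that between 1 list and no list 1.51 ± 0.362, and that between both lists and 1 list 1.60 ± 0.117 (SD, n = 3 libraries; exact p = 0.25 for each, the smallest possible). Regions held by Tead replicate 2, whatever replicate 1 showed, exceeded the rest by 1.62, and those held by replicate 1 exceeded the rest by 2.08.

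**Figure D1:**
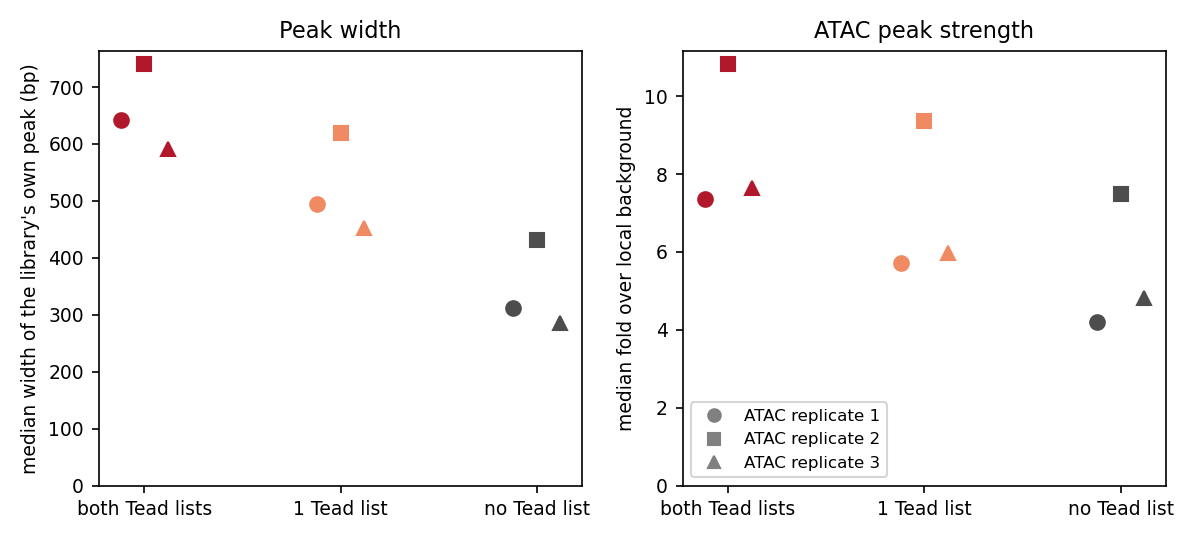
Median width in bp of each ATAC library's own peak (left) and median fold over local background (right) at open regions in both Tead lists, 1 list and no list; each point is 1 of 3 E12.0 ATAC libraries. In every library both medians are highest for both lists and lowest for no list, for example 643, 494 and 312 bp in replicate 1.

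A wide region offers more room for an overlap, so the regions were also divided into 5 width bins of equal number. The share held by both Tead lists was 0.638, 1.16, 2.32, 3.62 and 5.22% from the narrowest bin (160 to 379 bp) to the widest (933 to 3644 bp). The share held by 1 list was 20.3, 29.8, 43.7, 51.1 and 52.0%. The share in both lists thus climbed over the whole range of width, while the share in 1 list levelled off in the last pair of bins.

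Within width bins the difference in ATAC fold between both lists and no list was smaller, and it had no single sign in the narrowest bin. It averaged −0.577 ± 0.869 there, with 1 library above 0 and 2 below. In the following bins it was 0.575 ± 0.234, 1.63 ± 0.260, 2.21 ± 0.559 and 2.15 ± 0.238, with all 3 libraries above 0 in each (SD, n = 3; exact p = 0.25). Between 1 list and no list the fold difference was −0.329 ± 0.445 in the narrowest bin, with 0, −0.836 and −0.151 in the libraries. It was −0.0768 ± 0.310 in the second bin, where the libraries differed in sign. In the wider bins it was 0.862 ± 0.350, 1.59 ± 0.492 and 1.99 ± 0.482. For the middle bin (529 to 706 bp), leaving out ATAC replicate 1, 2 or 3, which redefines regions and bins, gave 0.788, 0.752 and 0.923 in place of 1.63.

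**Figure D2:**
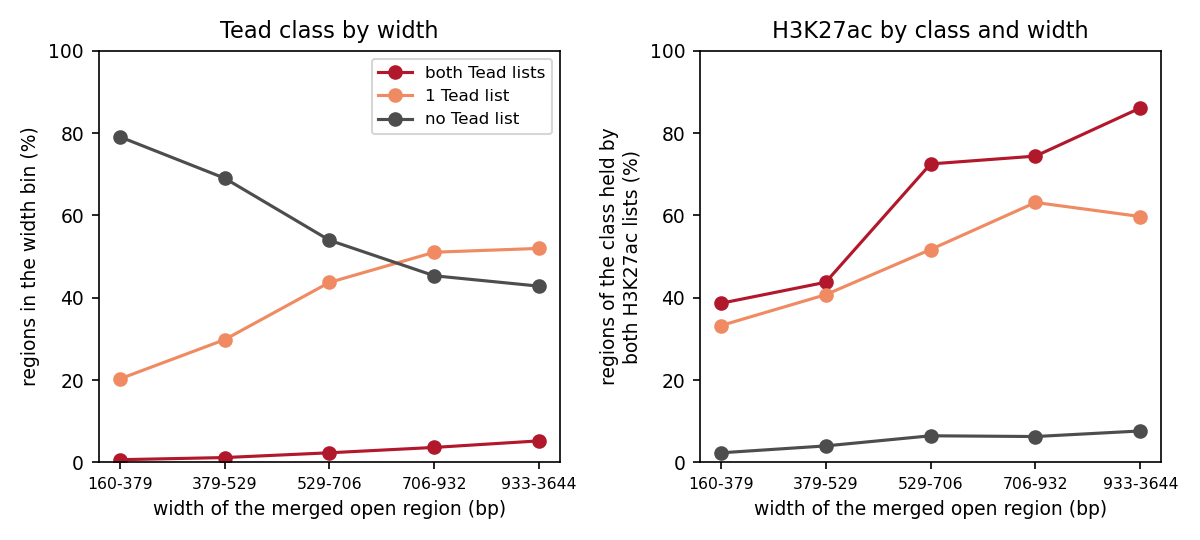
Left, percent of the open regions in each of 5 width bins (bp) that were held by both Tead lists, 1 list or no list; right, percent of the regions of each class and bin held by both E12.0 H3K27ac lists. Both-list shares go from 0.638% to 5.22%, and the no-list line in the right panel stays between 2.31% and 7.62% while the other lines lie above 33%.

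Read the other way, the stronger the ATAC peak, the more often Tead was listed on it. From the weakest to the strongest of 5 bins of equal number, set within each ATAC library, both Tead lists held 0.942 ± 0.261, 1.37 ± 0.258, 1.98 ± 0.154, 3.33 ± 0.356 and 5.34 ± 0.909% of the regions (mean ± SD, n = 3 libraries). Every library gave this rising order. One list held 29.6 ± 3.66% of the weakest and 58.7 ± 1.91% of the strongest regions, and 69.5 ± 3.88% and 36.0 ± 2.76% were in no list. The mean of the libraries' median widths was 445 bp in the weakest bin and 874 bp in the strongest, so width moved with strength. The sets of regions behind the 3 libraries are the same, so these SDs cover the ranking by library and not a new draw of regions.

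**Figure D3:**
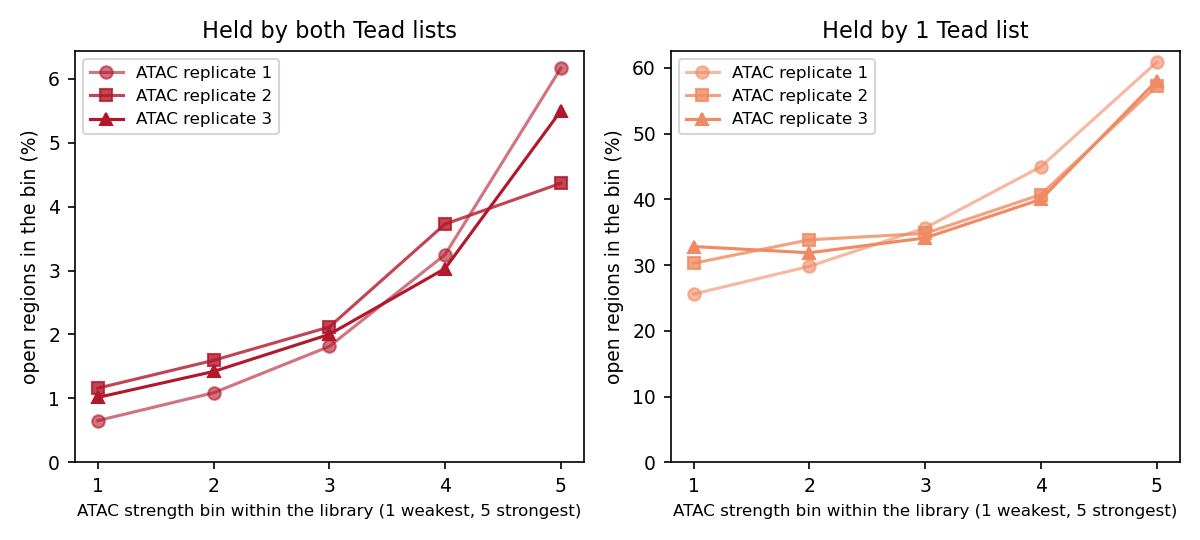
Percent of open regions held by both Tead lists (left) and by 1 list (right) in 5 bins of ATAC fold within each of the 3 E12.0 ATAC libraries, weakest to strongest. The share in both lists averages 0.942% in the weakest bin and 5.34% in the strongest, and rises through every bin in each library.

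The Tead signal itself differed little between the classes. In Tead replicate 1 the median fold of the strongest peak was 2.87 at regions in both lists and 2.72 at regions in that list alone. In replicate 2 it was 3.11 at regions in both lists and 2.70 at regions in that list alone. Most members had low folds: the smaller of the 2 Tead folds had a median of 2.72 and reached 3 in 227 of the 894 regions. Within their own lists they were not weak. The strongest of 5 fold bins of replicate 2 began at 2.58, and the lower quartile of the members was 2.63. In replicate 1 the member median of 2.87 lay in the bin from 2.72 to 3.03, next to the strongest. A single peak from each list fell on 753 of the 894.

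Tead summits were usually offset from the ATAC summit. The distance from the strongest Tead summit to the strongest ATAC summit had a median of 224 to 228 bp by ATAC library for Tead replicate 1 and 196 to 208 bp for replicate 2, at regions in both lists. Between 17.6 and 21.9% of these pairs lay within 100 bp. The Tead summit fell inside the open region in 78.2% of the members for replicate 1 and 80.4% for replicate 2, against 54.7% and 74.9% of the regions that only replicate 1 or only replicate 2 held. For most of the 894 regions the overlap was therefore not an edge contact. The closest case inside the rule, a region near Mab21l1 (chr3:55665973-55666260), overlapped a Tead peak by 3 bp, and the closest case outside it, near Rbms3 (chr9:117063464-117063961), was 4 bp from one.

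Regions in both Tead lists lay more often at gene starts. A region counted as being at a start when it came within 1 kb of a protein-coding transcription start, or of either gene end where the strand was not in the table used, as for 4392 of 21883 genes. By this rule 57.0% of the regions in both lists (510), 44.8% of those in 1 list and 35.5% of those in no list lay at a start, and 39.7% of all open regions. The Wilson intervals were 53.8 to 60.3%, 44.0 to 45.6% and 34.8 to 36.1%. Another 20.9, 28.9 and 31.5% of the 3 classes lay elsewhere in a gene span, where all open regions had 30.2%, and 22.04, 26.3 and 33.1% lay outside gene spans.

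Width moved with position. In the middle width bin 42.5% of the regions in both lists and 35.0% of those in no list lay at a start, a difference of 7.46 points against 21.6 points over all regions. In the next bin the shares were 57.6% for both lists and 63.0% for no list, and in the widest bin 74.7% and 83.9%, the opposite order. With the Tead class set by a single list, whatever the other list showed, regions it held were at a start more often than the rest. The difference was 10.2 points for replicate 2 and 14.0 points for replicate 1. Among wide open regions, then, gene starts were not more frequent in the Tead lists.

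**Figure D4:**
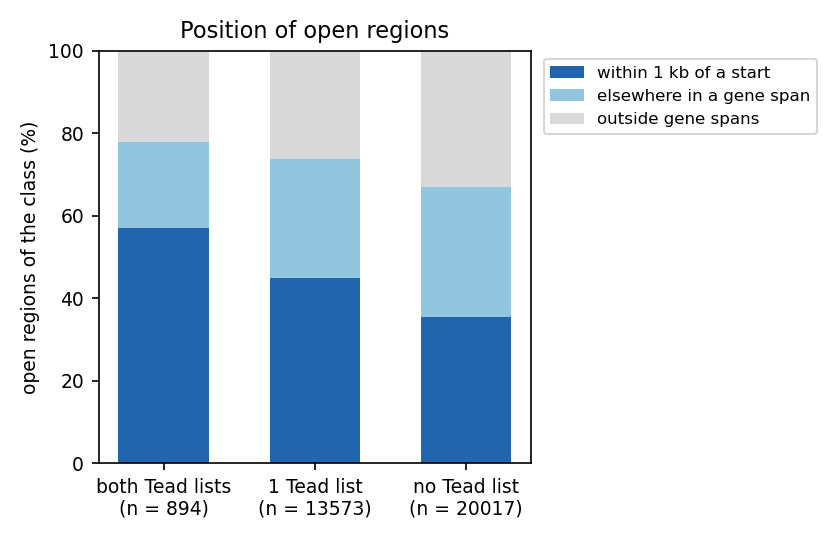
Stacked percent of open regions within 1 kb of a protein-coding start, elsewhere in a gene span and outside gene spans, for regions in both Tead lists, 1 list and no list; n is the number of regions. The share at a start is 57.0%, 44.8% and 35.5% from left to right.

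H3K27ac, which had no part in the choice of regions, set the Tead classes apart at every width. Both E12.0 H3K27ac lists held 74.3% of the regions in both Tead lists (664 of 894), 53.2% of those in 1 list and 4.88% of those in no list, where 25.7% of all open regions were held. Taken singly, H3K27ac replicate 1 held 96.5, 88.9 and 21.1% of the 3 classes and replicate 2 held 75.6, 56.6 and 11.5%. The order was the same in both libraries. By width bin the share in both H3K27ac lists was 38.6 to 86.1% for both Tead lists, 33.2 to 63.1% for 1 list and 2.31 to 7.62% for no list. It also held by position: at starts 80.0, 56.6 and 4.97%, elsewhere in gene spans 62.6, 47.9 and 4.35%, and outside gene spans 70.6, 53.3 and 5.28%.

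The 234 regions held by Tead replicate 1 alone were nearer to the no-list class. Both H3K27ac lists held 10.7% of them (25), against 54.0% of the regions held by Tead replicate 2 alone. The library kit was shared by Tead and H3K27ac replicates of the same number, so the shares are given for each pairing of libraries. In every pairing the share was higher for regions on the Tead list. A part of the kit, or of the CUT&RUN assay common to these libraries, was not tested. H3K27ac replicate 1 held 85.5% of the regions on the Tead replicate 1 list and 48.5% of the rest, and H3K27ac replicate 2, made with the other kit, held 64.0% and 29.8%. For the Tead replicate 2 list these shares were 90.2% and 21.3% with H3K27ac replicate 1 of the other kit, and 58.4% and 11.6% with H3K27ac replicate 2. Taking a single Tead list as the class, the gap in regions held by both H3K27ac lists was 50.3 points for replicate 2 and 36.6 points for replicate 1, against 69.4 points between both lists and no list.

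Counted from the acetylation side, both Tead lists held 7.49% of the 8865 open regions in both H3K27ac lists, 2.09% of the 10089 in 1 and 0.122% of the 15530 in none. No Tead list held 11.02, 45.4 and 93.1% of them. Open chromatin without listed H3K27ac was thus almost all outside the Tead lists. Median widths of these 3 sets were 776, 645 and 491 bp. H3K27ac folds, where a region was listed, were also graded: the median in H3K27ac replicates 1 and 2 was 4.79 and 4.01 for both Tead lists, 4.18 and 3.50 for 1 list, and 3.11 and 3.23 for no list.

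Nearly all the regions remained open at E13.5. All 3 E13.5 ATAC lists held 99.6, 99.5 and 96.4% of the regions in both Tead lists, 1 list and no list, where 97.7% of all open regions were held. The difference of 3.15 points between both lists and no list became 10.1, 7.49 and 10.3 points when ATAC replicate 1, 2 or 3 of E12.0 was left out and weaker regions entered. In the E13.5 libraries the median fold was 11.98, 11.1 and 11.7 for both Tead lists, 11.4, 10.04 and 11.2 for 1 list, and 8.84, 7.28 and 8.30 for no list. Regions in both lists exceeded those in no list by 3.47 ± 0.343 in fold and those in 1 list by 0.730 ± 0.298 (SD, n = 3; exact p = 0.25, the smallest possible). The order of strength seen at E12.0 was therefore present in libraries of another age and reporter, which the rule did not use.

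Genes nearest to regions in the Tead lists had more RNA than those nearest to the other open regions. Each gene was counted once in a class, and its level was expressed per length as TPM, the transcript share of a gene in its library. The median TPM in RNA replicates 1 and 2 was 17.5 and 21.7 for the 810 genes nearest to regions in both lists, 12.95 and 16.97 for the 8451 genes of the 1-list class, and 3.38 and 4.46 for the 10520 genes of the no-list class. Over all 21154 protein-coding genes with a value it was 1.73 and 2.37. A TPM of 1 or more was reached by 87.9 and 89.9%, 83.0 and 84.9%, and 61.4 and 63.7% of the genes in the same order of classes, against 53.1 and 54.9% of all genes. The libraries were made from sorted cells in bulk, where fewer cells with a transcript and less of it per cell cannot be told apart.

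As a ratio of medians, both lists stood 2.37 and 2.28 above no list on the log2 scale in the 2 libraries, and both lists stood 0.43 and 0.35 above 1 list. An exact permutation test over 2 libraries cannot go below p = 0.50, and none is given. The mean log2 ratio to no list of 2.33 ± 0.06 (SD, n = 2) fell to 0.69 when genes under 1 TPM were left out of every class. Defined by Tead replicate 1 alone it was 1.06, and by replicate 2 alone 1.99. Classes shared genes: 433 of the 821 genes nearest to a region in both lists were also nearest to a region in no list. Restricting both classes to genes near one class only, a choice made after seeing the data, left 277 and 5988 genes and a log2 ratio of 4.65.

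The step from 1 list to both lists differed by position. At gene starts the medians were 20.1 and 25.8 TPM for both lists, 19.3 and 24.2 TPM for 1 list and 3.75 and 4.91 TPM for no list in the 2 libraries, so both lists exceeded 1 list by 1.04- and 1.07-fold. Away from starts they were 13.8 and 15.9 TPM for both lists, 7.03 and 9.37 TPM for 1 list and 2.93 and 3.84 TPM for no list, a ratio of both lists to 1 list of 1.96 and 1.70. Among regions at starts that both H3K27ac lists held, the medians were 20.1 and 25.3, 20.0 and 24.9, and 11.8 and 15.2 TPM. In the last set the ratio of both lists to no list was 1.70 and 1.67, well under the 5.35 and 5.26 over all starts. Away from starts with the same acetylation, both lists kept a ratio of 2.22 and 1.92 to 1 list. The 221 genes nearest to regions of Tead replicate 1 alone had medians of 2.98 and 3.42 TPM, close to the no-list class.

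**Figure D5:**
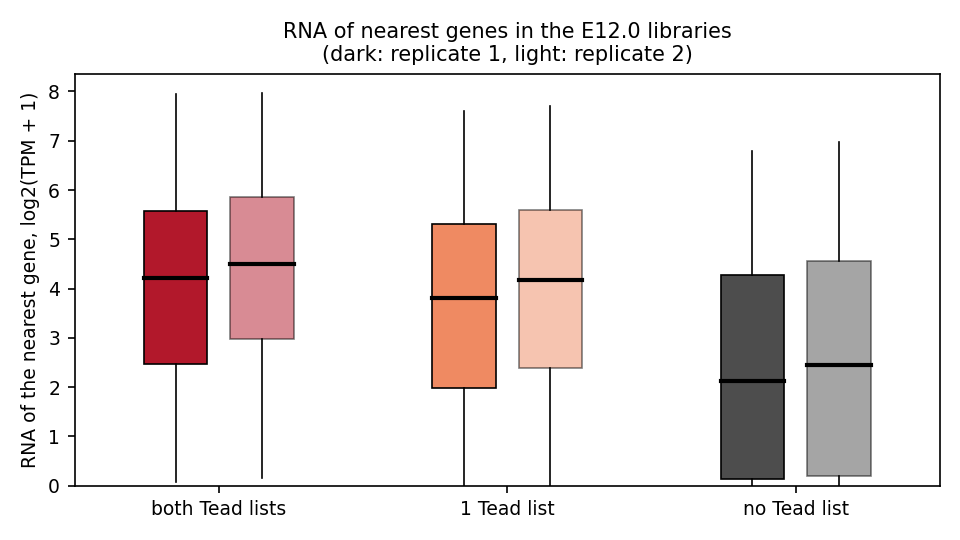
RNA of the nearest protein-coding genes, as log2(TPM + 1), by Tead class in both E12.0 RNA libraries; boxes show the quartiles, the bar the median, and lines the 5th to 95th percentiles over genes. The median is higher for both lists (17.5 and 21.7 TPM) and 1 list (12.95 and 16.97 TPM) than for no list (3.38 and 4.46 TPM), and the ranges overlap.

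The sorted cells carried the RNA of the labelled type. Sox2 had 21.3 and 28.8 TPM, and all 8 epithelial markers reached 1 TPM, with summed levels of 1521 and 1837 TPM. The 24 prosensory genes summed to 3005 and 3886 TPM, and 22 and 23 of them reached 1 TPM. Much of that sum came from Id1 (927 and 1329 TPM), Id2 (560 and 565) and Id3 (191 and 171), while Pax8 was at 0. Markers of other cell types were low in sum: 19.9 and 32.1 TPM over 10 neuronal genes, 0.894 and 0.0823 TPM over 5 endothelial genes with Tek and Tie1 at 0, and 16.1 and 3.37 TPM over 5 immune genes, with Cd68 at 16.0 and 3.37. The 8 mesenchymal genes summed to 728 and 820 TPM, of which Lum alone gave 713 and 794, while Pou3f4 and Tbx18 were at 0. The 6 glial and neural crest genes summed to 343 and 510 TPM, with Erbb3 at 321 and 477. A part of these cells in any class was not tested.

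Of the 6 genes for Yap, Taz and Tead factors, 2 had an open region in both Tead lists at their own start, where the share over all protein-coding genes was 2.9%. Here and below, a gene with several open regions at its starts or gene ends took the class of the one on most Tead lists. Tead2, a DNA-binding factor of the family, had a region of 1628 bp (chr7:45215598-45217225) with Tead folds of 3.42 and 3.78 in replicates 1 and 2, ATAC folds of 4.90, 9.88 and 6.10, and 122 and 138 TPM. Wwtr1, the Yap paralogue Taz, had one of 1517 bp (chr3:57575175-57576691) with Tead folds of 2.75 and 2.45, ATAC folds of 8.26, 12.03 and 6.68, and 65.2 and 54.9 TPM. Both regions were on both H3K27ac lists. These are the promoters printed above.

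The starts of Yap1, Tead1 and Tead3 were on the Tead replicate 2 list only, with folds of 2.71, 2.82 and 3.71. Their RNA stood at 69.98 and 94.97 TPM for Yap1, 15.9 and 21.5 TPM for Tead1 and 2.38 and 12.3 TPM for Tead3. Tead4 had open regions on no Tead list at its gene ends, no H3K27ac on either list there, and 0.460 and 3.13 TPM.

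Among 22 Hippo pathway genes, which include the kinases and their regulators, no start was on both lists. Of the 22 starts, 10 were on 1 list and 11 were open without Tead. Over all protein-coding genes 2.9% were on both lists, 29.6% on 1 list and 28.8% open without Tead (634, 6482 and 6298 genes). The start had no open region in 8469 of those 21883 genes. Shares over all genes, here and for the other lists, are therefore lower than shares among genes with an open start. Among genes with an open start, those on 1 list and those open without Tead were similar in number, as in the Hippo list. Those on 1 list were Ajuba, Amotl1, Amotl2, Lats1, Limd1, Nf2, Ptpn14, Stk4, Taok1 and Wwc1. Those open without Tead were Dchs1, Fat4, Frmd6, Lats2, Mob1a, Mob1b, Sav1, Stk3, Vgll4, Wtip and Wwc2, and Amot had no open region at its start. The kinase genes were divided: Lats1 and Stk4 were on the replicate 2 list with folds of 2.97 and 2.78, while Lats2 and Stk3 were open without Tead. Within 50 kb of the start, 3 of the 22 had a region in both lists, where 9.13% of all protein-coding genes did. One was near Vgll4, a Tead co-factor that competes with Yap, inside the gene and 4976 bp from its start (chr6:114963631-114964227), with Tead folds of 3.48 and 3.50. Limd1, an inhibitor of Lats kinases, had a pair of such regions. One lay inside the gene (chr9:123496513-123497024), with Tead folds of 2.57 and 2.36. The other lay inside the neighbouring gene Lars2 (chr9:123461729-123462248). The Tead folds of the region in Lars2 were 15.1 and 9.28, ATAC folds 22.2, 21.96 and 18.1, and H3K27ac replicate 1 listed it at a fold of 14.8 while replicate 2 did not list it. The region counted for Nf2, the Hippo activator Merlin, lay at the start of another gene, Nipsnap1, 24242 bp away. Neither the region in Lars2 nor the one at Nipsnap1 can be assigned to the listed gene by distance alone.

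Of 22 genes known from other cells as Yap/Tead targets, 2 starts were on both lists, 7 on 1 list and 11 open without Tead, where the shares over all protein-coding genes were 2.9, 29.6 and 28.8%. Gadd45a, a stress-response gene of growth arrest, had Tead folds of 2.87 and 2.85 at a region of 1274 bp (chr6:67036464-67037737), ATAC folds of 11.5, 15.1 and 9.59, and 5.41 and 27.2 TPM, the second library being higher. Arhgef17, a guanine nucleotide exchange factor, had Tead folds of 6.64 and 4.77 at a region of 1448 bp (chr7:100931767-100933214), ATAC folds of 7.46, 10.1 and 8.13, and 17.4 and 21.5 TPM. The starts of Ccn1, Ccn2 and Amotl2 were on the replicate 2 list only. Ccn1 (Cyr61) had a Tead fold of 2.96 and 79.6 and 129 TPM, Ccn2 (Ctgf) a fold of 2.46 and 16.9 and 32.6 TPM, and Amotl2 a fold of 4.31 and 23.1 and 37.8 TPM. Nuak2, Ptpn14, Rbms3 and Tgfb2 were also on 1 list. For Nuak2 this rests on 1 of 2 distant open regions counted at its start (chr1:132333638-132334134). The other (chr1:132315787-132316574) was on no Tead list, so the class of this gene is uncertain. Asap1, Axl, Crim1, Dock5, F3, Fjx1, Foxf2, Igfbp3, Lats2, Myof and Nt5e were open without Tead at their starts. Ankrd1, at 0 and 0.304 TPM, and Ccdc80, at 24.5 and 25.2 TPM, had no open region there. Within 50 kb, 4 of the 22 had a region in both lists, Asap1 and Dock5 being the others, and within 10 kb 2 did, where 4.0% of all genes did. By nearest gene 3 did, where 3.75% of all genes did. With counts this small the list is described only.

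Of 24 prosensory genes, 2 starts were on both lists, 11 on 1 list and 9 open without Tead, where 2.9, 29.6 and 28.8% of all protein-coding genes were. Id3, an inhibitor of basic helix-loop-helix factors, had Tead folds of 2.48 and 2.11 (chr4:136143397-136144093), ATAC folds of 5.37, 6.22 and 5.55, and 191 and 171 TPM. This region ranked low, with a smaller Tead fold of 2.11, and was on the H3K27ac replicate 1 list only. Pax2, a factor of the early otic vesicle, had folds of 2.57 and 2.58 (chr19:44755602-44757003) and 2.41 and 3.04 TPM, so a region in both lists was also found beside a gene with little RNA. Within the gene Lgr5, a Wnt receptor of the developing cochlea, a region 42599 bp from the start (chr10:115492913-115494245) had Tead folds of 3.33 and 2.96, H3K27ac folds of 5.27 and 4.57, and the gene 47.1 and 42.2 TPM.

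The starts of Sox2 and Cdkn1b, the genes of both sorting reporters' names (p27 is the product of Cdkn1b), were on the replicate 2 list only, with Tead folds of 1.97 and 2.23. The Notch ligand gene Jag1 was open without Tead at its start and had 46.3 and 43.3 TPM, as were Sox9 with 145 and 161 TPM and Isl1 with 186 and 276 TPM. A high RNA level was thus not always accompanied by a Tead peak at the start. Within 50 kb, 2 of 3 open regions of Jag1, 0 of 4 of Sox9 and 1 of 5 of Isl1 were on 1 Tead list. Of 10 hair cell genes, 0 starts were on both lists, 1 (Myo6) was on 1 list, and 7 were open without Tead, beside the same shares of 2.9, 29.6 and 28.8% over all genes. Among the 7 was Atoh1 with 0.154 and 0.665 TPM.

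Of 26 cell cycle genes of the S and G2/M phases, 2 starts were on both lists, 18 on 1 list and 6 open without Tead, where 2.9, 29.6 and 28.8% of all protein-coding genes were, and 0 were closed. The shares over all genes include 8469 genes without an open start, so they understate the shares among open starts. Mcm7, a subunit of the replicative helicase, had 2 neighbouring open regions, both on both lists (chr5:138170903-138171557 and chr5:138171605-138172253), which shared the same Tead peaks with folds of 2.72 and 4.43, and the gene had 1357 and 916 TPM. Cdt1, a licensing factor of replication, had Tead folds of 3.18 and 2.98 (chr8:122567142-122568468) and 53.1 and 39.7 TPM. Of 16 G1 genes, E2f3 was on both lists at its start, with Tead folds of 3.18 and 3.34 and 21.9 and 29.6 TPM, and 7 starts were on 1 list, among them Cdk6 with a fold of 2.19 and 9.49 and 12.2 TPM. Ccnd1, the cyclin of the G1 phase, had 348 and 442 TPM, a start on the replicate 2 list with a fold of 2.16, and a region in both lists 1449 bp from it (chr7:144941280-144941916) with folds of 3.31 and 2.42. Myc and Mycn starts were open without Tead, with 7.98 and 1.93 TPM for Myc and 33.4 and 68.3 TPM for Mycn.

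Of 7 heterochronic genes, which time developmental steps, Igf2bp1 had a region in both lists 633 bp from its start. Its Tead folds were 2.29 and 2.71, and the gene had 142 and 218 TPM. Another open region counted at this start (chr11:96005822-96006293) was on no Tead list. Hmga2 was on the replicate 2 list with a fold of 2.32 and 665 and 748 TPM. Lin28b, at 28.4 and 34.1 TPM, had no open region at its start. Among 10 genes of the AP-1 family, whose products often bind beside Tead in other cells, Jun was on both lists with folds of 2.87 and 2.62 (chr4:95051905-95053043) and 44.1 and 57.4 TPM. Fos, Fosb and Jund starts were on 1 list, and 5 starts were open without Tead. Of 8 epithelial markers, 1 start was on both lists (Krt8, folds of 3.48 and 2.06) and 5 on 1 list. The Krt8 region in both lists lay 852 bp from the start, and another open region there was on the replicate 2 list only. Of 10 neuronal markers, 0 starts were on both lists, 1 was on 1 list and 5 had no open region. The shares over all genes were 2.9% for both lists and 29.6% for 1 list, and counts this small do not set either list apart from them.

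Of the 10 strongest members named, ranked by the smaller of the Tead folds, 2 were nearest to genes of the pathway lists, Limd1 and Arhgef17. The Limd1 member was the region inside Lars2, which distance alone cannot assign to Limd1. The top region lay outside genes, 35412 bp from the start of Pak3 (chrX:143482936-143483179), only 244 bp wide. Its Tead folds were 28.1 and 46.8, its ATAC folds 35.2, 27.8 and 22.6, its H3K27ac folds 44.3 and 33.9 and its E13.5 ATAC folds 49.5, 45.4 and 44.9, so it was high in every list of every assay. The second named region, 220 bp in Cldn34d on the X chromosome, was high in the CUT&RUN lists, with Tead folds of 15.5 and 23.7 and H3K27ac folds of 19.2 and 10.5, but not in the ATAC lists, with folds of 6.39, 3.94 and 4.01. The gene was at 0 TPM in both libraries. Whether the reads at these narrow regions, or at the region in Lars2 with its high ATAC folds, map uniquely was not tested.

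Further down, the strongest regions at starts were wide. Those of 4931408C20Rik, Prrc2a, H4f16, Arhgef17 and Khsrp measured 1406, 1186, 1000, 1448 and 1285 bp. Prrc2a, an RNA-binding protein gene (chr17:35164370-35165555), had Tead folds of 10.4 and 5.18 and 33.6 and 73.5 TPM. Khsrp, a splicing regulator gene (chr17:57031046-57032330), had folds of 4.54 and 4.57 and 4.62 and 6.20 TPM. Pcnt, the gene of the centrosome scaffold pericentrin, had folds of 4.49 and 4.65 (chr10:76442211-76443112) and 9.10 and 14.2 TPM, and Blcap folds of 4.69 and 4.44 and 75.5 and 97.1 TPM. H4f16, a histone H4 gene with near-identical copies, had folds of 8.32 and 4.77 and 0.112 and 0.121 TPM, and 4931408C20Rik had folds of 6.18 and 5.45 and 0 TPM in both libraries. Reads of such copies could have been divided between genes, so the values of the last pair are uncertain. RNA of the genes nearest to the strongest Tead peaks thus ranged from 0 to 97.1 TPM.

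The short word GGAATG was not more frequent at promoters in the Tead lists. It was searched, on both strands as GGAATG or CATTCC, in windows from 250 bases before to 50 bases after each start in the RefSeq table. It was found in 9.23% of 574 windows overlapping a region in both lists (53; Wilson interval 7.13 to 11.9%), 11.2% of 5992 in 1 list, 11.1% of 5430 in no list and 16.8% of 9241 in closed windows, where 13.6% of all 21237 windows held it. The difference between both lists and no list was −1.87 points with an interval of −4.15 to 0.896, so over all windows a difference was not detectable at this number. Base composition differed: the median share of G and C was 59.0% for both lists, 61.0% for 1 list, 64.7% for no list and 48.0% for closed windows. Within 5 bins of that share, from low to high, the word was in 6.25, 10.5, 9.83, 9.52 and 7.06% of the windows in both lists, against 18.4, 15.8, 15.3, 11.7 and 7.74% of those in no list. The share was lower for both lists in each bin, where these lists had 32, 95, 173, 189 and 85 windows, and the difference within bins was not tested. The longer word GGAATGT was in 2.44, 2.35 and 2.54% of the windows in both lists, 1 list and no list. A further word, ACATTG, was in 4.36, 4.47 and 3.996%. It shares the letters ACATT with ACATTCC, the reverse complement of GGAATGT, and is no independent control. Regions away from promoters were not searched, since a genome sequence was not used here.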

How the data were processed

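Per the labels, Tead CUT&RUN, H3K27ac CUT&RUN, ATAC-seq and RNA-seq were run on Sox2-GFP positive cells at E12.0 and ATAC-seq on p27-GFP positive cells at E13.5, and groups were taken from the sample titles. The peak lists were deposited by the authors as 1 list per library. Each peak has a fold (a ratio over local background), −log10 p, −log10 q and a score as deposited by the authors, and the score was not used. The deposited RNA tables hold expected counts, estimated reads per gene that need not be whole, per the file headers. MACS2, STAR and UMI-tools, with no version, and the builds mm10 and GRCm38 are listed in the submitters' processing notes. Read depth behind the peak lists is unknown, and the expected counts summed to 9412326 and 9810603. In the Tead lists 72 and 250 peak numbers were missing, and none in the E12.0 ATAC lists.

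Peaks of the 3 E12.0 ATAC libraries were merged, and a list held a region on an overlap of 1 bp or more. Folds were compared within a list only, by the strongest peak in the region. Starts came from RefSeq tables (strand known for 17491 of 21883 protein-coding genes), and a gene's TPM from expected counts and effective lengths, matched for 21154 genes. The exact sign-flip permutation test ran over libraries. The RNA libraries were distinct (a chi-square of 29.7 for each degree of freedom between their counts), and no 2 peak lists were the same. The interval functions were tested on simulated data. Python 3.11.15, pandas 2.3.3, numpy 2.4.6 and scipy 1.17.1 were used. Named genes were those nearest, within 50 kb, to the 10 both-list regions (and the 5 at starts) with the largest smaller-of-2 Tead folds, plus genes of the pathway lists. Named examples of the other lists were chosen after their values were seen. The members and gene lists were chosen with earlier results of these data known.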

Additional observations from a re-analysis of the deposited data

How the results depend on the processing

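Every difference between both Tead lists and no list kept its direction under the alternatives run, except the share of promoter windows with a word. That was −1.87 points for GGAATG, −0.102 for GGAATGT and 0.359 for the further word ACATTG. The middle width bin was the width alternative. In other bins the ATAC fold difference (−0.577, narrowest) and the order at starts (57.6 against 63.0% and 74.7 against 83.9%, widest pair) were turned round. Of 133 alternative values 51 stayed within the error of the main value and 82 moved. Requiring the Tead summit inside the region put 1.81% of open regions in both lists and 67.2% in none, and the differences became 359 bp in width, 3.54 in ATAC fold and 2.08 in log2 RNA. Requiring an overlap of at least 50% of either interval gave 1.98% and 64.7%, 331 bp and 2.07. Keeping only E12.0 ATAC and Tead peaks with −log10 q of at least 2 left 25727 open regions, with 1.10% in both lists and 58.6% in none. The differences were then 2.76 in ATAC fold, 27.1 points at starts, 74.1 points in H3K27ac and 0.981 points open at E13.5. They were 1.93 in log2 RNA and 1.61 points between strength bins. In the middle width bin only, 2.32% and 54.0% were in both lists and none, with 79.7 bp, a fold difference of 1.63, 7.46 points at starts, 66.0 points in H3K27ac, 1.80 points at E13.5 and 3.17 in log2 RNA. A window of 5 kb gave 16.5 points at starts, and E13.5 lists of any library 0.754 points. For RNA, log2 differences were 0.69 with TPM of 1 or more, 2.48 for genes within 50 kb, 2.41 at starts, 1.62 for mean log2(TPM + 1) and 4.65 for genes of 1 class. Leaving out 1 ATAC or Tead library gave 2.00 to 41.3% in both lists and 58.7 to 96.7% in none, 188 to 368 bp, fold differences of 1.62 to 3.90 (0.752 to 1.24 in the middle width bin), 10.2 to 26.9 points at starts, 36.6 to 69.7 points in H3K27ac, 1.47 to 10.3 points at E13.5, 3.98 to 33.5 points between strength bins and, RNA libraries included, 1.06 to 2.38 in log2 RNA. Within 10 kb the list counts became 2 for Yap/Tead targets, 1 for Hippo genes, 2 for S and G2/M genes, 1 for AP-1, 2 for epithelial, 0 for mesenchymal and 1 for immune genes, and by nearest gene 2 for S and G2/M, 1 for AP-1, 1 for epithelial, 0 for glial and 0 for immune genes. The cause of these moves was not tested, except that leaving out a Tead list leaves a class held by 1 list. No paired analysis was possible because the labels do not say what a replicate number shares between assays, beyond the class differences taken within each library. With 1 merged set of regions the shares have no replicate check, and an exact test over 2 or 3 libraries cannot reach the usual threshold.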

Other observations

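By chromosome, both Tead lists held 1.82 to 4.09% of the open regions of the autosomes, the highest share on chromosome 7 (98 of 2397) and the next on chromosome 3 (61 of 1682). On the X chromosome both lists held 2.06% and 1 list 22.4% of 678 open regions, the lowest 1-list share of any chromosome, where the autosomes had 34.6 to 43.4%. No explanation was tested.

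Tead replicate 2 peaks outside the open regions lay on the H3K27ac replicate 1 list in 33.4% of cases and on the replicate 2 list in 15.0%. For Tead replicate 1 these shares were 4.87% and 4.68%.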
